A study of Mus musculus with 2 samples.

Results

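The laminin and integrin chain genes were followed across the cell types of the fetal mouse testis. Members were all gene rows whose symbol was *Lama*, *Lamb* or *Lamc* with a number, *Itga* with a number or letter, or *Itgb* with a number, which gave 37 of the 32285 genes, and 36 of them are described, namely 10 laminin chains, 18 integrin alpha chains and 8 integrin beta chains. Whole testes of E14.5 embryos that carried *Nr5a1-cre* and *Rosa-tdTomato* had been frozen and their nuclei profiled with the 10x multiome, which reads RNA and open chromatin from the same nucleus. *Nr5a1-cre* is a transgene under regulatory sequence of *Nr5a1*, a gene of steroidogenic and somatic gonadal cells, and *Rosa-tdTomato* is its fluorescent reporter. There was 1 RNA library and 1 ATAC library, both of this single genotype, and the sources used here do not give the number of embryos behind them. No value below therefore has a replicate and no test between samples was possible, so 95% intervals are exact and cover counting error only.

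Laminins are secreted trimers of an alpha, a beta and a gamma chain, and they form one of the networks of basement membranes. Integrins are receptors of an alpha and a beta chain that span the cell membrane, and the alpha chain largely sets the ligand: the chains of *Itga3*, *Itga6* and *Itga7* bind laminins, those of *Itga1*, *Itga2*, *Itga10* and *Itga11* bind mainly collagens, and most others bind fibronectin, other matrix proteins or cell surface ligands. In the fetal testis a basement membrane wraps each testis cord, with Sertoli and germ cells inside it and peritubular myoid cells outside, and further ones lie under the surface epithelium and around vessels.

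The deposited matrix held 9833 barcodes, of which 7667 passed the quality thresholds and 7197 were kept after the highest doublet scores were removed. Kept nuclei had a median of 7949 RNA molecules (UMIs) and 4484 fragments. Clusters from both assays were named from markers that held no laminin or integrin chain: 2569 nuclei were progenitor-like, 989 germ-like, 833 Sertoli-like, 758 Leydig-like, 755 contractile-like, 544 surface epithelium-like, 388 mesonephric mesenchyme-like, 96 endothelial-like, 69 immune-like and 66 pericyte-like. A class of 47 erythroid-like nuclei was under the 50 nuclei set for calls, and 83 nuclei led by *Pax8* stayed unnamed. All markers of the Sertoli, germ, Leydig, contractile, endothelial, pericyte and immune lists were highest in their own class, as were 4 of 6 progenitor, 4 of 5 surface epithelium and 3 of 5 mesonephric mesenchyme markers. Free RNA and doublets reached every class: from markers of unrelated cell types they were put at between 22.5% (Leydig-like) and 61.4% (immune-like) of a class's UMIs, with 56.0% in endothelial-like and 40.7% in germ-like nuclei. An automatic doublet threshold would have marked 1391 nuclei. Levels without those nuclei are given for some of the chains and classes in which they differ, not for all. The chains were not left out of the genes behind the doublet scores. Levels and ratios without those nuclei are thus not independent of the chains' own RNA.

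A chain was called in a class when its level reached 10 UMIs per 1000000 UMIs of the class (CPM) and its lower 95% bound exceeded 2 times the level that free RNA would give there. Of the 36 chains, 29 were called in at least 1 class. Of the 33 chains with 20 or more UMIs 28 were called, against 64.8% of the 19418 genes at that depth, and of the 25 chains with 100 or more UMIs 24 were called, against 80.7% of genes with as many. The counts were highest in the mesenchymal and Leydig-like classes, and the share of all genes called there stands beside each. Of the chains, 18 were called in contractile-like (42.1% of those 19418 genes), 17 in progenitor-like (43.5%), 16 in pericyte-like (33.0%), 15 in Leydig-like (42.2%), 15 in mesonephric mesenchyme-like (35.3%) and 13 in surface epithelium-like nuclei (41.4%). Inside the cords 10 chains were called in Sertoli-like nuclei (38.9%) and 3 in germ-like nuclei (35.3%), the 3 being *Lamc1*, *Itgb3* and *Itgb5*. Where free RNA was high and the call stricter, 9 chains were called in endothelial-like (6.64%) and 8 in immune-like nuclei (7.84%), the classes in which few other genes were. Among chains with 100 or more UMIs, 4 had a highest class at least 2 times the next, namely *Itga2* (endothelial-like), *Itga1* and *Itga10* (pericyte-like) and *Itga8* (mesonephric mesenchyme-like), although the ratio of *Itga10* (2.30, 0.738 to 8.46) had an interval that includes 1, and 18.6% of all genes at that depth did so.

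**Figure D1:**
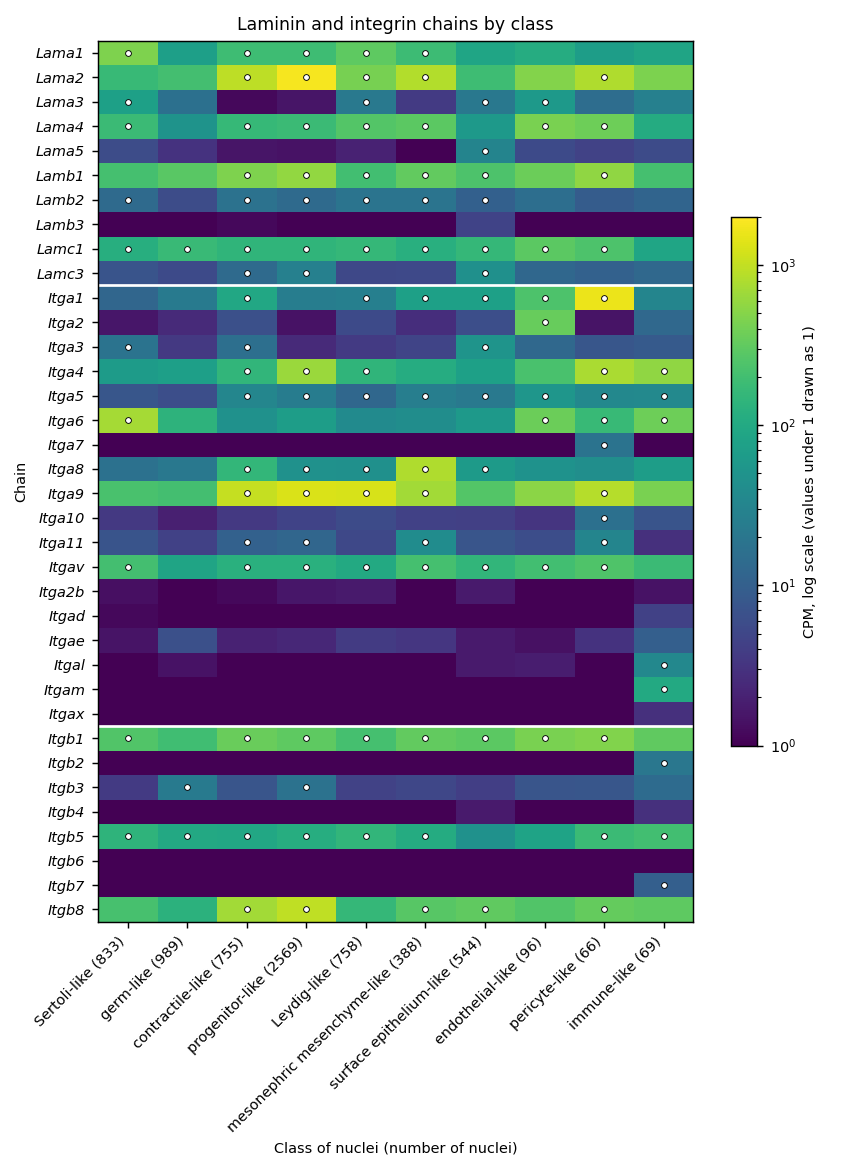
Level of each of the 36 chains (rows) in the 10 named classes of 50 or more nuclei (columns, number of nuclei in brackets), as CPM on a log colour scale, with a white circle where the chain was called. *Lama2* and *Itga9* were brightest in progenitor-like nuclei, *Itga6* in Sertoli-like nuclei, *Itga1* in pericyte-like nuclei and *Itga8* in mesonephric mesenchyme-like nuclei.

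The laminin alpha chains carry the main sites for integrins. *Lama1* (ENSMUSG00000032796, GRCm38 chr17:67697259-67822647, plus strand), the alpha chain of early embryonic basement membranes, stood at 465 CPM in Sertoli-like nuclei (452 to 478), 306 in Leydig-like, 191 in progenitor-like, 187 in contractile-like, 186 in mesonephric mesenchyme-like, 111.3 in endothelial-like, 86.2 in surface epithelium-like, 83.4 in immune-like, 73.5 in germ-like and 69.3 in pericyte-like nuclei. Sertoli-like nuclei were highest, 1.52 times Leydig-like nuclei (1.45 to 1.59), and progenitor-like, contractile-like and mesonephric mesenchyme-like nuclei had overlapping intervals. After each nucleus was thinned to 2000 UMIs, 59.2% of Sertoli-like nuclei held a *Lama1* UMI (55.7% to 62.5%), against 7.70% of germ-like nuclei. Without the nuclei over the automatic doublet threshold the germ-like level was 11.7 CPM and the Sertoli-like level 516 CPM.

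*Lama2* (chr10:26980036-27619758, minus strand), the alpha chain known from muscle, ran the other way. It stood at 1783 CPM in progenitor-like nuclei (1764 to 1803), 926 in contractile-like, 833 in mesonephric mesenchyme-like, 810.3 in pericyte-like, 489 in endothelial-like, 445 in immune-like, 426 in Leydig-like, 206 in germ-like, 188 in surface epithelium-like and 168 in Sertoli-like nuclei. Progenitor-like nuclei were 1.92 times contractile-like nuclei (1.87 to 1.98), and mesonephric mesenchyme-like and pericyte-like intervals overlapped. Much of the lower levels lay in nuclei over the doublet threshold. Without them *Lama2* stood at 20.1 CPM in Sertoli-like, 19.8 in germ-like, 34.8 in endothelial-like, 42.5 in surface epithelium-like, 75.3 in immune-like and 218 in Leydig-like nuclei, and at 1798 in progenitor-like nuclei.

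*Lama3*, a chain of epithelial basement membranes, stood at 76.0 CPM in Sertoli-like (70.7 to 81.6), 61.7 in endothelial-like, 27.3 in immune-like, 21.8 in Leydig-like, 21.2 in surface epithelium-like, 16.7 in germ-like, 15.1 in pericyte-like, 3.69 in mesonephric mesenchyme-like, 1.52 in progenitor-like and 1.19 in contractile-like nuclei. The progenitor-like and contractile-like levels, which were lowest, rested on 28 and 7 UMIs. Without the nuclei over the doublet threshold the endothelial-like level was 115 CPM and the Sertoli-like level 88.6 CPM, which turned their order.

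*Lama4* (chr10:38965515-39110188, plus strand), the alpha chain of vessel walls and mesenchyme, stood at 436 CPM in endothelial-like (408 to 465), 372 in pericyte-like (327 to 421.4), 293 in mesonephric mesenchyme-like, 261 in Leydig-like, 180.2 in progenitor-like, 177 in Sertoli-like, 164 in contractile-like, 106 in immune-like, 60.4 in surface epithelium-like and 49.7 in germ-like nuclei. The vessel classes were highest, with an endothelial-like to pericyte-like ratio of 1.17 (1.02 to 1.35). The endothelial-like level was 819 CPM and the pericyte-like level 389.6 CPM without the nuclei over the doublet threshold.

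*Lama5* (chr2:180176373-180225859, minus strand), a chain of many mature epithelia and vessels, was low in most classes. It stood at 30.5 CPM in surface epithelium-like nuclei (25.9 to 35.6), the single named class in which it was called, 5.92 in Sertoli-like, 5.76 in immune-like, 5.56 in endothelial-like, 4.52 in pericyte-like, 3.02 in germ-like, 2.06 in Leydig-like, 1.54 in contractile-like, 1.46 in progenitor-like and 0.335 in mesonephric mesenchyme-like nuclei.

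The beta and gamma chains complete the trimers. *Lamb1* (chr12:31265234-31329644, plus strand) stood at 587 CPM in progenitor-like (576 to 598), 571 in pericyte-like, 462 in contractile-like, 364 in endothelial-like, 324 in mesonephric mesenchyme-like, 285 in germ-like, 241 in surface epithelium-like, 210.9 in Sertoli-like, 210.1 in immune-like and 201 in Leydig-like nuclei. Progenitor-like and pericyte-like levels did not differ beyond counting error (ratio 1.03, 0.928 to 1.14). The Sertoli-like and germ-like levels did not pass the call, their lower bounds not being over 2 times what free RNA would give, although the germ-like level was still 268 CPM without the nuclei over the doublet threshold.

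*Lamb2* (chr9:108479736-108490530, plus strand), the beta chain of kidney and muscle junctions, stood between 5.90 CPM in germ-like and 18.8 CPM in mesonephric mesenchyme-like nuclei. Its levels were 18.7 CPM in Leydig-like, 17.4 in contractile-like, 15.8 in endothelial-like, 14.02 in Sertoli-like, 14.03 in progenitor-like, 11.5 in immune-like, 10.3 in surface epithelium-like and 9.04 in pericyte-like nuclei. The 6 classes in which it was called were thus close to one another, from surface epithelium-like to mesonephric mesenchyme-like nuclei.

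*Lamc1* (chr1:153218922-153332786, minus strand), the common gamma chain, was called in every named class but the immune-like one. It stood at 291 CPM in endothelial-like (268 to 314), 239 in pericyte-like, 171 in germ-like, 159.9 in surface epithelium-like, 158 in Leydig-like, 144 in progenitor-like, 143 in contractile-like, 122 in mesonephric mesenchyme-like, 118 in Sertoli-like and 87.8 in immune-like nuclei. Germ-like nuclei kept 181 CPM without the nuclei over the doublet threshold, so this chain did not fall there as *Lama1* and *Lama4* did.

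*Lamc3* (chr2:31887291-31946539, plus strand), a gamma chain also found outside basement membranes, stood at 45.03 CPM in surface epithelium-like (39.4 to 51.2), 27.7 in progenitor-like, 13.99 in contractile-like, 12.9 in immune-like, 12.5 in endothelial-like, 10.54 in pericyte-like, 7.11 in Sertoli-like, 5.56 in germ-like, 5.37 in mesonephric mesenchyme-like and 5.26 in Leydig-like nuclei. *Lamb3* held 67 UMIs in all and was called nowhere.

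Nuclear RNA includes introns, so a long gene collects more UMIs, and levels of different chains were set side by side only per kilobase of gene. The 10 CPM cut of a call was not scaled in this way. It was the same for every chain, from 10.8 kb of gene (*Lamb2*) to 639.7 kb (*Lama2*), and so harder to reach for short genes. In progenitor-like nuclei *Lamb1* stood at 9.11 CPM per kilobase, *Lama2* at 2.79 and *Lamc1* at 1.27, whereas in Sertoli-like nuclei *Lama1* stood at 3.71, *Lamb1* at 3.27 and *Lamc1* at 1.03 CPM per kilobase. On this scale the *Lamb1* level was the highest of the 3 chains in progenitor-like nuclei, and *Lama1* the highest in Sertoli-like nuclei. *Lamb1* was not called in Sertoli-like nuclei, and *Lamb2*, a much shorter gene, is not given on this scale.

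Of the integrin alpha chains that bind laminin, *Itga6* (chr2:71745616-71858416, plus strand) was highest in Sertoli-like nuclei. The annotation places *Gm13662* and *Gm13663* on its strand, so some reads could belong to those genes. *Itga6* stood at 723 CPM in Sertoli-like (707 to 740.0), 369.8 in immune-like, 366 in endothelial-like, 167 in pericyte-like, 138 in germ-like, 68.4 in progenitor-like, 59.4 in surface epithelium-like, 47.3 in contractile-like, 41.3 in mesonephric mesenchyme-like and 37.5 in Leydig-like nuclei. The Sertoli-like level was 1.96 times the immune-like one (1.73 to 2.22), and the immune-like and endothelial-like levels overlapped. In thinned nuclei 70.5% of Sertoli-like and 6.62% of Leydig-like nuclei held an *Itga6* UMI. The levels were 837 CPM in Sertoli-like, 599 in immune-like and 586 in endothelial-like nuclei once the nuclei over the doublet threshold were left out.

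*Itga3* (chr11:95044474-95076801, minus strand), the epithelial laminin receptor chain, stood at 50.7 CPM in surface epithelium-like (44.7 to 57.2), 18.3 in Sertoli-like, 16.2 in contractile-like, 12.98 in endothelial-like, 8.63 in immune-like, 7.53 in pericyte-like, 4.70 in mesonephric mesenchyme-like, 3.66 in Leydig-like, 3.50 in germ-like and 2.49 in progenitor-like nuclei. It was called in the first 3 of these. *Itga7*, the chain of muscle, held 39 UMIs in all and was called in pericyte-like nuclei alone. Its level there was 18.1 CPM, in a class where 1 UMI makes 1.51 CPM, so the call rests on few UMIs.

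Next come the collagen-binding chains. *Itga1* (chr13:114953096-115101964, minus strand), a chain of smooth muscle and mesenchyme, stood at 1616 CPM in pericyte-like (1521 to 1716), 237 in endothelial-like, 94.0 in contractile-like, 76.1 in surface epithelium-like, 75.5 in mesonephric mesenchyme-like, 31.7 in immune-like, 26.6 in Leydig-like, 24.7 in progenitor-like, 23.0 in germ-like and 12.2 in Sertoli-like nuclei. The pericyte-like level was 6.82 times the endothelial-like one (6.13 to 7.59), and the endothelial-like level was 88.1 CPM without the nuclei over the doublet threshold. The annotation places *Pelo* on the same strand within *Itga1*, so that some reads could belong to either gene.

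*Itga2* (chr13:114833081-114932100, minus strand), its neighbour on the chromosome, was called in endothelial-like nuclei alone, at 341 CPM (317 to 366). It stood at 12.9 CPM in immune-like, 6.31 in contractile-like, 6.21 in surface epithelium-like, 5.48 in Leydig-like, 2.68 in mesonephric mesenchyme-like, 2.44 in germ-like, 1.58 in Sertoli-like, 1.51 in pericyte-like and 1.46 in progenitor-like nuclei. An *Itga2* UMI was found in 60.0% of thinned endothelial-like nuclei (49.4% to 69.9%) and 0.317% of thinned progenitor-like nuclei. Its endothelial-like level was 792 CPM without the nuclei over the doublet threshold.

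*Itga11* (chr9:62677826-62783982, plus strand), a fibroblast collagen receptor chain, stood at 39.9 CPM in mesonephric mesenchyme-like (33.1 to 47.8), 31.6 in pericyte-like, 12.4 in progenitor-like, 10.7 in contractile-like, 7.38 in surface epithelium-like, 7.11 in Sertoli-like, 6.03 in endothelial-like, 5.26 in Leydig-like, 4.36 in germ-like and 2.88 in immune-like nuclei. It was called in the first 4 of these. *Itga10* (chr3:96645584-96664519, plus strand), known from cartilage, was called in pericyte-like nuclei alone, at 16.6 CPM on 11 UMIs, and lay between 1.97 CPM (germ-like) and 7.19 CPM (immune-like) elsewhere. Its values were 5.598 CPM in Leydig-like, 4.55 in progenitor-like, 4.36 in mesonephric mesenchyme-like, 4.27 in surface epithelium-like, 3.58 in contractile-like, 3.55 in Sertoli-like and 3.25 in endothelial-like nuclei.

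The remaining alpha chains bind fibronectin, other matrix proteins or cell surface ligands. *Itga9* (chr9:118606690-118901003, plus strand), a receptor chain for tenascin and VCAM1, stood at 1315 CPM in progenitor-like (1299 to 1332), 1267 in Leydig-like, 1031 in contractile-like, 851 in pericyte-like, 697 in mesonephric mesenchyme-like, 534 in endothelial-like, 437 in immune-like, 263 in surface epithelium-like, 222 in Sertoli-like and 206 in germ-like nuclei. It was called in the first 5 of these, which are the Leydig-like and the mesenchymal classes. Without the nuclei over the doublet threshold it stood at 74.7 CPM in Sertoli-like and 26.5 in germ-like nuclei.

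*Itga4* (chr2:79255426-79333123, plus strand), a receptor chain for fibronectin and VCAM1, separated the progenitor-like from the contractile-like and Leydig-like classes. It stood at 762 CPM in pericyte-like (697 to 832), 632 in progenitor-like (621 to 644), 567 in immune-like, 225 in endothelial-like, 148 in contractile-like, 143 in Leydig-like, 112 in mesonephric mesenchyme-like, 76.3 in surface epithelium-like, 73.9 in germ-like and 64.0 in Sertoli-like nuclei. The 3 highest classes kept 886, 642 and 557 CPM without the nuclei over the doublet threshold, whereas the endothelial-like level was then 28.7 CPM and the Leydig-like level 71.6 CPM. *Cerkl* overlaps *Itga4* on the other strand.

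*Itga8* (chr2:12106632-12301922, minus strand), a receptor chain for nephronectin and fibronectin that is known from kidney mesenchyme, stood at 799 CPM in mesonephric mesenchyme-like (767 to 832), 153 in contractile-like, 69.1 in immune-like, 63.1 in surface epithelium-like, 48.7 in endothelial-like, 47.4 in progenitor-like, 45.1 in Leydig-like, 42.2 in pericyte-like, 21.2 in germ-like and 16.9 in Sertoli-like nuclei. The highest level was 5.23 times the next (4.84 to 5.66). The study used *Itga8*, with *Ntrk3* and *Rxfp2*, to mark a cluster in this library, and those 2 genes are among the markers that named this class, so the level is not independent evidence.

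*Itga5* (chr15:103344286-103366763, minus strand), the classical fibronectin receptor chain, stood at 54.2 CPM in endothelial-like (44.9 to 65.0), 36.0 in immune-like, 34.6 in pericyte-like, 33.1 in contractile-like, 26.2 in mesonephric mesenchyme-like, 24.3 in progenitor-like, 21.5 in surface epithelium-like, 12.7 in Leydig-like, 7.70 in Sertoli-like and 6.23 in germ-like nuclei. It was called in all of these but the last 2, the classes of the cords. *Itgav* (chr2:83724397-83806916, plus strand), which pairs with several beta chains, stood at 247 CPM in pericyte-like, 216 in mesonephric mesenchyme-like, 209 in Sertoli-like, 200.3 in endothelial-like, 179.8 in immune-like, 147 in surface epithelium-like, 126 in contractile-like, 123 in progenitor-like, 103 in Leydig-like and 85.5 in germ-like nuclei.

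The beta chain *Itgb1* (chr8:128685654-128733200, plus strand), the common partner, stood at 477 CPM in pericyte-like, 433 in endothelial-like, 349 in contractile-like, 324 in mesonephric mesenchyme-like, 309 in immune-like, 304 in progenitor-like, 297 in surface epithelium-like, 250.4 in Sertoli-like, 214 in Leydig-like and 194 in germ-like nuclei. It was called in all but the immune-like and germ-like classes, where its lower bound was not over 2 times what free RNA would give, and without the nuclei over the doublet threshold those classes held 377 and 187 CPM. *Itgb8* (chr12:119158022-119238802, minus strand), which with *Itgav* binds latent TGF-beta, stood at 977 CPM in progenitor-like (963 to 991), 701 in contractile-like, 329.9 in pericyte-like, 309 in surface epithelium-like, 304 in immune-like, 278 in mesonephric mesenchyme-like, 254 in endothelial-like, 221.5 in Sertoli-like, 158 in Leydig-like and 131 in germ-like nuclei. Its level was thus high in progenitor-like and contractile-like nuclei and low in Leydig-like ones, which lie in the same compartment.

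*Itgb5* (chr16:33829665-33949338, plus strand), a vitronectin receptor chain, stood at 201 CPM in immune-like, 176 in pericyte-like, 148 in Leydig-like, 139 in Sertoli-like, 115 in progenitor-like, 108 in mesonephric mesenchyme-like, 97.0 in germ-like, 94.5 in contractile-like, 81.6 in endothelial-like and 46.2 in surface epithelium-like nuclei. *Itgb3* (chr11:104608000-104670476, plus strand), known from platelets and osteoclasts, was called in germ-like nuclei, at 22.8 CPM (20.8 to 24.96), and in progenitor-like nuclei, at 17.4 CPM (15.6 to 19.5). It stood at 14.4 CPM in immune-like, 7.53 in pericyte-like, 7.42 in endothelial-like, 7.34 in contractile-like, 5.03 in mesonephric mesenchyme-like, 4.46 in Leydig-like, 4.08 in surface epithelium-like and 3.65 in Sertoli-like nuclei. Germ-like nuclei kept 28.7 CPM of *Itgb3* without the nuclei over the doublet threshold, and this was the single beta chain for which they were the highest named class.

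The other 12 chains had under 100 UMIs or were not called. *Itgae* (270 UMIs) had over 100 UMIs and was called in no class. *Itgam* (99 UMIs), *Itgal* (86), *Itgb2* (26) and *Itgb7* (19), chains of leukocyte receptors, were called in immune-like nuclei alone. The *Itgb7* level there was 10.1 CPM, just over the cut, in a class where 1 UMI makes 1.44 CPM. *Lamb3* and *Itga7* are given above, and *Itga2b* (95), *Itgb4* (64), *Itgad* (28), *Itgb6* (17) and *Itgax* (6) did not reach the call in any class at this depth. The 47 erythroid-like nuclei, which no call used, held 733 CPM of *Itga4* (655 to 817), and 466 CPM of *Itgb1*. The *Itga4* interval there overlapped that of pericyte-like nuclei.

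**Figure D2:**
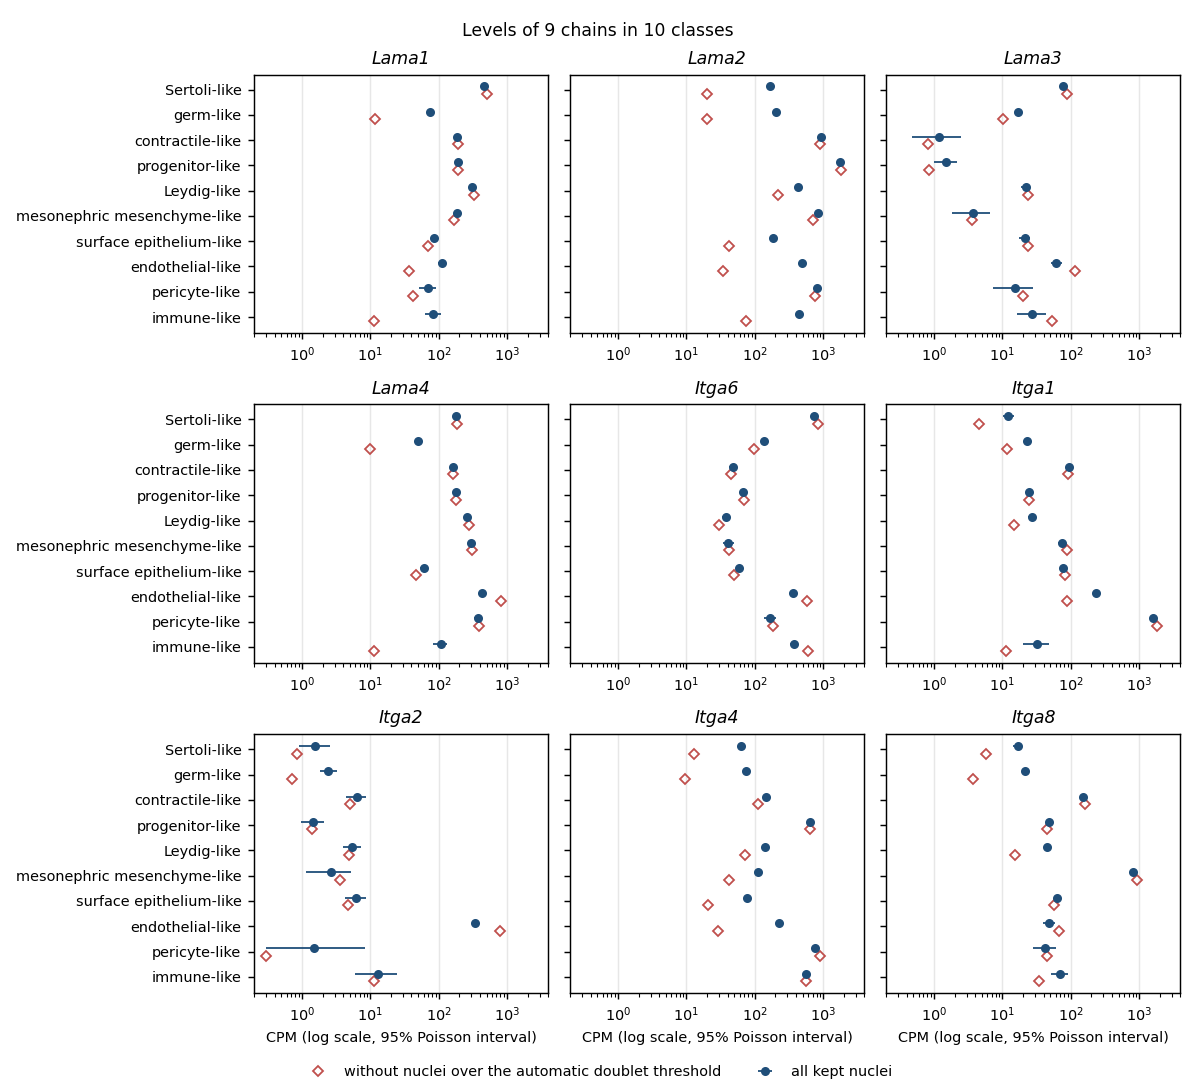
Levels of 9 chains in the 10 named classes as CPM on a log axis, with blue points and 95% Poisson intervals for all kept nuclei and red diamonds for the same classes without nuclei over the automatic doublet threshold (values at 0 are drawn at the left edge). In germ-like nuclei the red diamonds lie far to the left for *Lama1* (11.7 against 73.5 CPM) and *Lama2* (19.8 against 206 CPM).

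The chains were then paired, ligand with receptor. The 13 laminin trimers considered each had RNA of all 3 chains called in at least 1 named class, in 40 pairs of a class and a trimer. The mesenchymal and Leydig-like classes held most of them, with 8 trimers each in contractile-like, progenitor-like and Leydig-like nuclei and 6 in mesonephric mesenchyme-like nuclei. Each of these 4 classes held *Lama1*, *Lama2* or *Lama4* with *Lamb1* or *Lamb2* and *Lamc1*. Trimer counts follow from the calls of single chains. The share of all genes called was 42.1% in contractile-like, 43.5% in progenitor-like, 42.2% in Leydig-like and 35.3% in mesonephric mesenchyme-like nuclei. Elsewhere it was 41.4% in surface epithelium-like, 38.9% in Sertoli-like, 35.3% in germ-like, 33.0% in pericyte-like, 7.84% in immune-like and 6.64% in endothelial-like nuclei. Trimers with the *Lamc3* chain and *Lama2* or *Lama4* were called in contractile-like and progenitor-like nuclei alone, and those of *Lama3* with *Lamc1* in Leydig-like, surface epithelium-like and, with *Lamb2*, Sertoli-like nuclei. Surface epithelium-like nuclei had 5 trimers, and the 3 of them with the *Lama5* chain were called there and in no other named class. Sertoli-like nuclei had 3 trimers (*Lama1*, *Lama3* or *Lama4* with *Lamb2* and *Lamc1*), and *Lamb1* was not called in them. Pericyte-like nuclei had 2 (*Lama2* or *Lama4* with *Lamb1* and *Lamc1*), and endothelial-like, germ-like and immune-like nuclei had 0. These contrasts do not follow the level of *Lamb1*, which was lowest in Leydig-like nuclei (201 CPM) and called there. Free RNA, which sets the bar, was put at 22.5% of UMIs in Leydig-like nuclei. It was put at 34.0% in Sertoli-like, 40.7% in germ-like, 56.0% in endothelial-like and 61.4% in immune-like nuclei, where *Lamb1* was not called. Uncalled trimers are thus not shown to be absent.

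Of 24 integrin heterodimers, 18 had both chains called in at least 1 named class, in 63 pairs. Pericyte-like nuclei had 11, contractile-like 10, progenitor-like 9, mesonephric mesenchyme-like 8, Leydig-like 7, surface epithelium-like 6, endothelial-like 5, Sertoli-like 4, immune-like 3 and germ-like 0. Dimer counts too follow from the calls of single chains, and the share of all genes called in each class stands with the trimers above. *Itgav* with *Itgb1* was called in 8 classes and *Itga5* with *Itgb1* in 7. *Itga2* with *Itgb1* was called in endothelial-like nuclei alone, *Itgav* with *Itgb3* in progenitor-like nuclei alone, and *Itga7* or *Itga10* with *Itgb1* in pericyte-like nuclei alone.

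Integrins that bind laminin were then set beside the trimers. A laminin-binding heterodimer was called in Sertoli-like nuclei (*Itga3* and *Itga6* with *Itgb1*), contractile-like and surface epithelium-like nuclei (*Itga3* with *Itgb1*), endothelial-like nuclei (*Itga6* with *Itgb1*) and pericyte-like nuclei (*Itga6* and *Itga7* with *Itgb1*). Hence 4 classes had both a trimer and such a receptor. By these calls progenitor-like, Leydig-like and mesonephric mesenchyme-like nuclei were the 3 classes with trimers and no such receptor. Endothelial-like nuclei were the 1 class with a receptor and no trimer, and germ-like and immune-like nuclei had neither called. A missing call does not show that the RNA was absent, since the level needed rises with free RNA. *Itgb1* stood at 194 CPM in germ-like nuclei and was not called there. In immune-like nuclei *Itga6* was called and *Itgb1* was not. Integrins are not the only laminin receptors: *Dag1*, which encodes dystroglycan and was singled out after its values were seen, stood at 488 CPM in Sertoli-like, 258 in Leydig-like, 233 in germ-like, 201 in surface epithelium-like, 168 in endothelial-like, 149 in pericyte-like, 114 in immune-like, 105 in progenitor-like, 103 in contractile-like and 88.6 in mesonephric mesenchyme-like nuclei. By the rule used for the chains it was called in Sertoli-like, Leydig-like, germ-like, surface epithelium-like and pericyte-like nuclei. With classes from chromatin alone 19 class and trimer pairs and 30 class and dimer pairs were called, in place of 40 and 63. No endothelial-like or pericyte-like class was found there. Those classes had held 0 and 2 of the 40 trimer pairs and 5 and 11 of the 63 dimer pairs, so most of the trimer pairs lost lay in other classes. RNA in the same class of nuclei does not show that the chains met as protein.

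**Figure D3:**
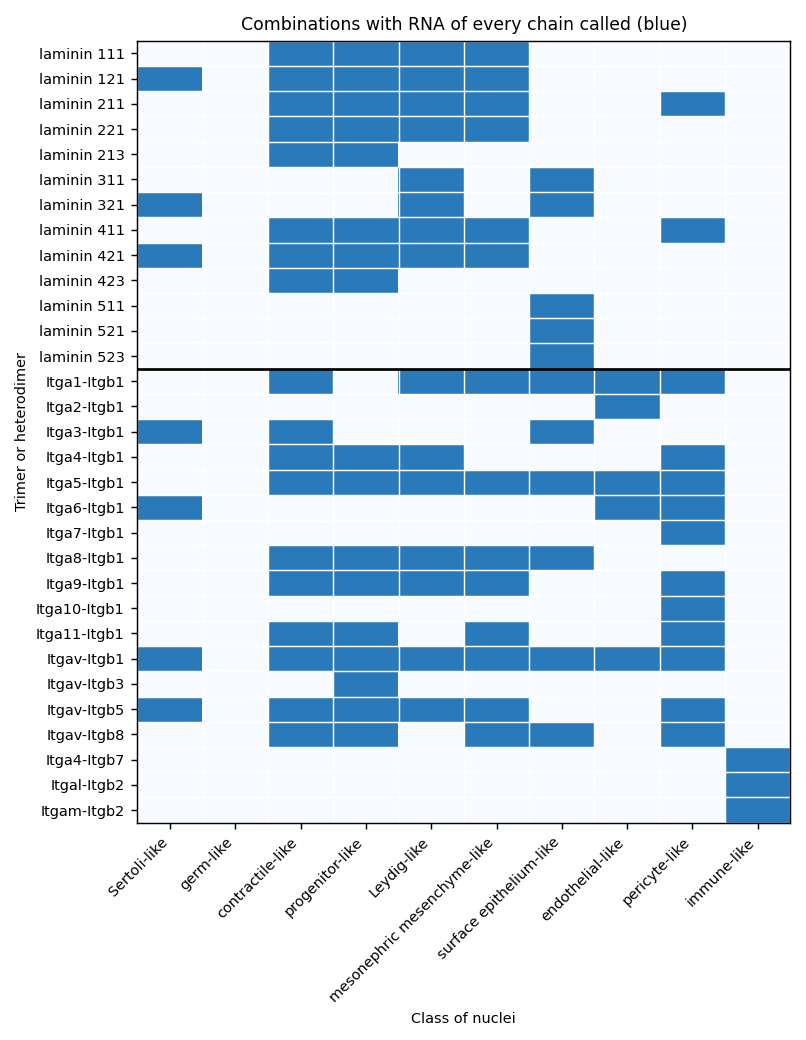
Laminin trimers, named by the numbers of their alpha, beta and gamma chains, and integrin heterodimers (rows) by class (columns), filled where RNA of every chain was called. Heterodimers that were filled nowhere are left out. The blocks of trimers in contractile-like, progenitor-like and Leydig-like nuclei and the *Lama5* trimers in surface epithelium-like nuclei stand apart, and the germ-like column is empty.

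The first comparison set the cell types inside the cords against each other. Of 29 chains with 20 or more UMIs over Sertoli-like and germ-like nuclei, 8 were at least 2-fold higher in Sertoli-like nuclei and 3 at least 2-fold lower, where 14.1% and 22.4% of all genes tested were so. *Lama1* was 6.32 times higher (5.97 to 6.70), *Itga6* 5.26 times (5.03 to 5.49), *Itga3* 5.22 times (3.96 to 6.94), *Lama3* 4.54 times, *Lama4* 3.56 times, *Itgav* 2.44 times, *Lamb2* 2.38 times and *Itgad* 2.75 times (1.06 to 7.38). The group held 3 of the 5 laminin alpha chains. The germ-like side held *Itgb3* (6.25 times, 4.47 to 8.98), *Itgae* (4.37 times) and *Itgal* (2.43 times, 0.995 to 7.14, an interval that includes 1). *Itgad*, *Itgae* and *Itgal* were called in neither class. The median log2 ratio was 0.52 over these chains and -0.15 over all genes. Without the nuclei over the doublet threshold the count was 17 instead of 11, and with ambient RNA subtracted it was 25. The share of all genes past 2-fold was not recomputed under such alternatives, here or in the comparisons and lists below. Counts under them therefore cannot be read as many or few. The ratios also moved with those nuclei: without them that of *Lama1* was 44.3, *Lama4* 18.8, *Itga3* 13.8, *Itga6* 8.73, *Lama3* 8.61, *Lamb2* 4.26, *Itgae* 0.127 and *Itgb3* 0.0494, each farther from 1.

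Of 28 chains compared between contractile-like and progenitor-like nuclei, 4 were at least 2-fold higher and 2 at least 2-fold lower, against 4.40% and 6.28% of all genes, and no laminin chain was among them. *Itga3* was 6.50 times higher (4.53 to 9.46), *Itga2* 4.31 times on 37 and 27 UMIs, *Itga1* 3.80 times (3.35 to 4.32) and *Itga8* 3.22 times (2.93 to 3.54). *Itga4* was 4.29 times lower and *Itgb3* 2.38 times lower. *Itga2* was called in neither class. *Lamc3* (1.98 times lower) and *Lama2* (1.92 times lower) came just short. The count moved with the processing: 10 chains passed 2-fold at a clustering resolution of 1.2, with 488 contractile-like nuclei, and 2 with classes from RNA alone, with 1100. It was also 10 with ambient RNA subtracted in unchanged classes, and 2 with the automatic doublet threshold.

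Progenitor-like and Leydig-like nuclei, the comparison at the centre of the study, differed by 2-fold in 9 of 28 chains, 7 higher and 2 lower in progenitor-like nuclei (15.2% and 12.9% of all genes). *Itgb8* was 6.17 times higher (5.84 to 6.52), *Lamc3* 5.28 times, *Itga4* 4.44 times (4.18 to 4.71), *Lama2* 4.19 times (4.05 to 4.33), *Itgb3* 3.92 times, *Lamb1* 2.93 times and *Itga11* 2.35 times. *Lama3* was 14.4 times higher in Leydig-like nuclei (9.64 to 22.2) and *Itga2*, called in neither class, 3.75 times. *Lama1*, *Lama4* and *Itgb5* were higher in Leydig-like nuclei by less than 2-fold, with ratios of 1.60, 1.45 and 1.28, and the ratio of *Itga9* was 1.04. With ambient RNA subtracted 14 chains passed 2-fold in place of 9. Leaving out the nuclei over the doublet threshold gave ratios of 31.4 for *Itgb8*, 17.5 for *Lamc3*, 8.96 for *Itga4*, 8.25 for *Lama2* and 0.0352 for *Lama3*, each farther from 1.

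The surface epithelium-like class differed from the progenitor-like class in 15 of 28 chains, with 6 higher and 9 lower (9.93% and 9.41% of all genes). Higher were *Lama5* (20.8 times, 13.8 to 32.6), *Itga3* (20.3 times, 14.8 to 28.45), *Lama3* (13.9 times), *Lamb3* (5.73 times on 24 and 15 UMIs), *Itga2* (4.25 times) and *Itga1* (3.08 times). Of these *Lamb3* and *Itga2* did not reach the level for a call. Lower were *Lama2* (9.50 times, 8.91 to 10.1), *Itga4* (8.29 times), *Itga9* (4.997 times), *Itgb3* (4.28 times), *Itgb8* (3.17 times), *Lama4* (2.99 times), *Itgb5* (2.49 times), *Lamb1* (2.44 times) and *Lama1* (2.22 times). Leaving out the nuclei over the doublet threshold gave ratios of 0.0236 for *Lama2*, 0.0324 for *Itga4* and 27.9 for *Lama3*, where all kept nuclei gave 0.105, 0.121 and 13.9. With classes from chromatin alone the ratio of *Itga2* turned to 0.927.

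Of 22 chains compared between endothelial-like and pericyte-like nuclei, 3 were at least 2-fold higher and 4 lower, against 12.9% and 6.40% of all genes. *Itga2* was 226 times higher, a ratio that rested on 1 UMI in pericyte-like nuclei and had an interval of 40.5 to 8948. *Lama3* was 4.09 times higher (2.16 to 8.73) and *Itga6* 2.19 times. *Itga1* was 6.82 times lower (6.13 to 7.59), *Itga11* 5.25 times, *Itga4* 3.39 times and *Itgb5* 2.16 times. The classes held 96 and 66 nuclei, and without the nuclei over the doublet threshold, which left 60 of each, 11 chains passed 2-fold. The ratio was then 131 for *Itga2*, 0.0486 for *Itga1*, 0.0323 for *Itga4* and 0.119 for *Itgb5*.

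**Figure D4:**
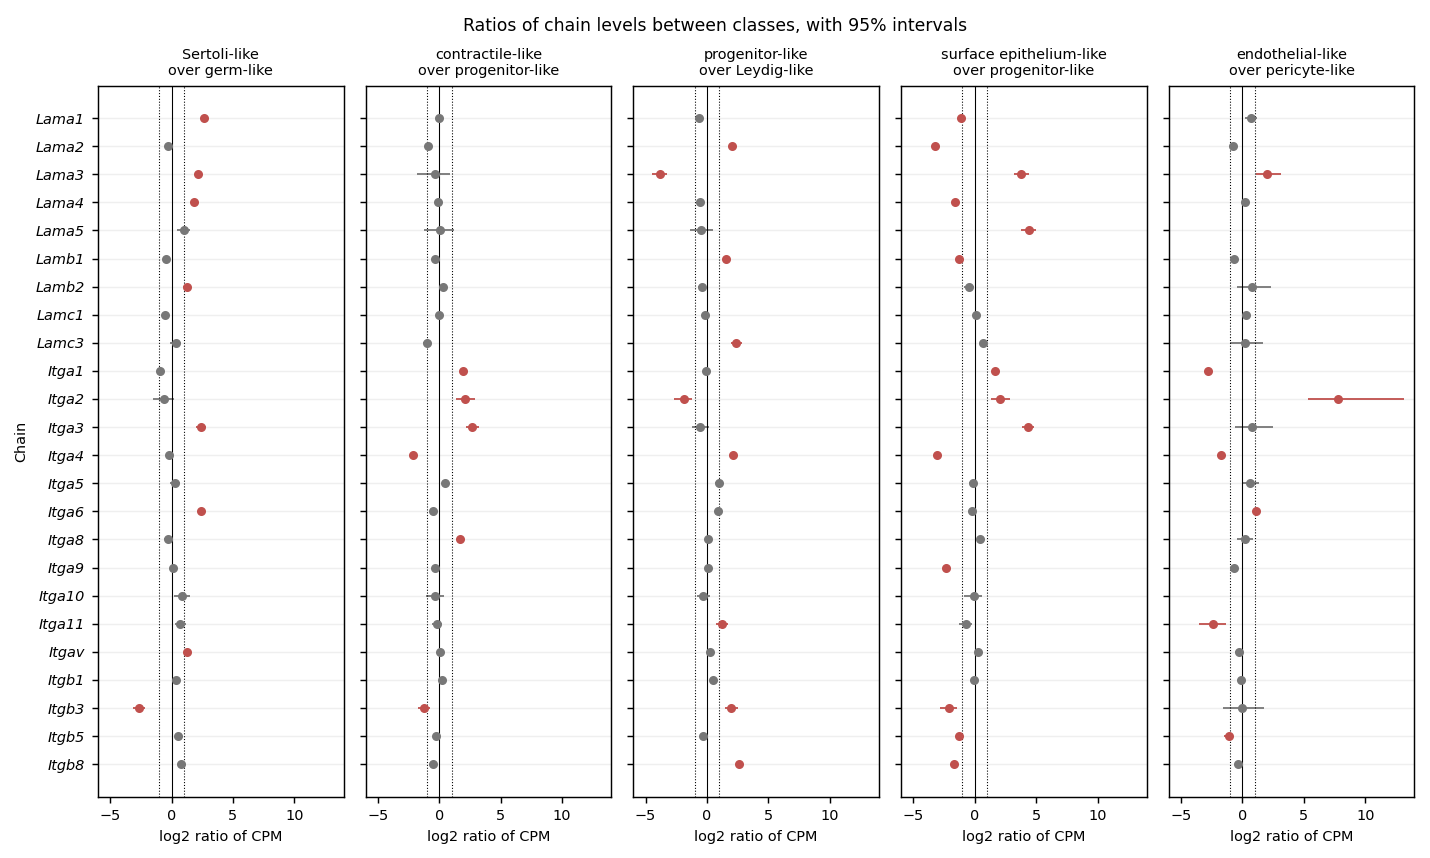
Log2 ratio of CPM for the 24 chains given in full in the 5 comparisons, with exact 95% intervals, red past 2-fold in either direction (dotted lines) and grey otherwise. Chains with too few UMIs in a comparison are not drawn. The surface epithelium-like comparison holds the most red points and the contractile-like one the fewest.

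Genes that work with the chains were taken from 3 lists, each read in 1 comparison, and the 3 largest folds among genes with 100 or more UMIs over both classes are named. Of 22 basement membrane partners, 6 were at least 2-fold higher and 2 lower in Sertoli-like than in germ-like nuclei (14.1% and 22.4% of all genes), with a median log2 ratio of 0.45 against -0.15 over all genes. The largest differences were those of *Ntn4*, a laminin-related netrin (49.1 and 4.75 CPM, 10.3 times, 8.32 to 12.96), *Tinagl1* (6.66 times) and *Fbln2*, which binds laminins (4.73 times). Of 16 other ligands and receptors with enough UMIs, 8 were higher and 2 lower in progenitor-like than in Leydig-like nuclei (15.2% and 12.9% of all genes, with median log2 ratios of 0.95 and -0.01). *Tnc*, a ligand of the *Itga9* chain, was 6.93 times higher in Leydig-like nuclei (5.99 to 8.04), whereas *Vcam1* (3.92 times) and *Fn1*, which encodes fibronectin (3.71 times, 3.43 to 4.01), were higher in progenitor-like nuclei. On fewer UMIs, and named after its values were seen, *Npnt*, which encodes nephronectin, was 4.46 times higher (1.78 to 14.4). *Vcam1* and *Npnt* were under 10 CPM in both classes. Of 19 genes of the adhesion machinery inside the cell, 5 were higher and 0 lower in contractile-like than in progenitor-like nuclei (4.40% and 6.28% of all genes, with median log2 ratios of 0.37 and -0.03). *Tns3* (2.34 times) and *Vcl*, which encodes vinculin (2.06 times), were past 2-fold and *Parva* had a ratio of 1.67. The other 3 genes past 2-fold had under 100 UMIs and were *Lims2* (3.15 times, 1.61 to 6.17), *Parvb* (2.85 times, 1.79 to 4.53) and *Fermt3* (2.25 times, 1.08 to 4.58), named after their values were seen. Each of the 3 was under 10 CPM in both classes. Genes of these lists passed 2-fold in other comparisons too, with 12 of 22 partners higher and 4 lower in progenitor-like than in Leydig-like nuclei, and 9 of 19 machinery genes higher and 1 lower in Sertoli-like than in germ-like nuclei. With ambient RNA subtracted 18 of the basement membrane partners passed 2-fold in either direction in place of 8, and with classes from chromatin alone 1 gene of the adhesion machinery did in place of 5.

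Chromatin at the promoters was read in classes drawn from RNA alone, with the chains kept out of the variable genes, so that accessibility had no part in the classes. These classes differ from those above under the same names: 476 nuclei were germ-like, since another 519 that scored best as germ stayed unnamed, and 1100 were contractile-like. Of the 36 chains, 29 had a peak within 1 kb of a start, and 24 of these had 50 cuts and 100 UMIs over the 7 classes of 300 or more nuclei. For 10 of the 24 the promoter was most accessible in the class with the most RNA, where 28.6% of all genes were so. The starts differed in kind: all genes were read at both ends of the gene interval, the chains also at annotated coding transcript starts. The count was 7 of 24 with no doublet removal, with stricter minimums or with the chains kept in the variable genes. That is close to the share of all genes, which was computed in the reported 7 classes alone. The count was 12 with the automatic doublet threshold. Stricter minimums left 5 classes and the automatic threshold 6, so those counts have no matching share. In 2 of the 10, *Itga8* and *Itga4*, the ratio to the next class had an interval above 1. *Itga8* promoter peaks held 46.3 transposase cuts per 1000000 cuts in peaks of the class (cut CPM) in mesonephric mesenchyme-like nuclei, 23.5 in contractile-like, 20.04 in germ-like, 19.97 in progenitor-like, 18.2 in Sertoli-like, 15.1 in Leydig-like and 14.9 in surface epithelium-like nuclei, a ratio to the next of 1.97 (1.17 to 3.24). The *Itga4* promoter held 29.2 cut CPM in progenitor-like, 17.7 in Leydig-like, 16.99 in contractile-like, 13.2 in germ-like, 11.9 in Sertoli-like, 9.43 in mesonephric mesenchyme-like and 6.28 in surface epithelium-like nuclei (1.65 times the next, 1.03 to 2.77).

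The other 8 chains with a shared highest class were *Lama1*, *Lama2*, *Lama5*, *Lamb1*, *Itga2*, *Itga3*, *Itga6* and *Itga10*. The class of *Itga2* was the germ-like one, at 10.1 CPM of RNA, as the endothelial-like class had under 300 nuclei and was not read. In the classes drawn from both assays *Itga2* was called in endothelial-like nuclei alone. There contractile-like, surface epithelium-like and Leydig-like nuclei stood above germ-like ones, so the order differs between the sets of classes. The *Lama2* promoter held 18.3 cut CPM in progenitor-like, 18.0 in mesonephric mesenchyme-like and 17.8 in contractile-like nuclei, against 7.63 in Sertoli-like and 2.29 in surface epithelium-like nuclei. The *Itga6* promoter held 33.5 in Sertoli-like and 27.5 in germ-like nuclei, against 16.3 in mesonephric mesenchyme-like, 15.4 in contractile-like, 14.2 in progenitor-like nuclei and a lowest value of 13.4 in the Leydig-like class. That of *Lama1* ran from 23.1 in mesonephric mesenchyme-like to 49.1 in Sertoli-like nuclei.

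**Figure D5:**
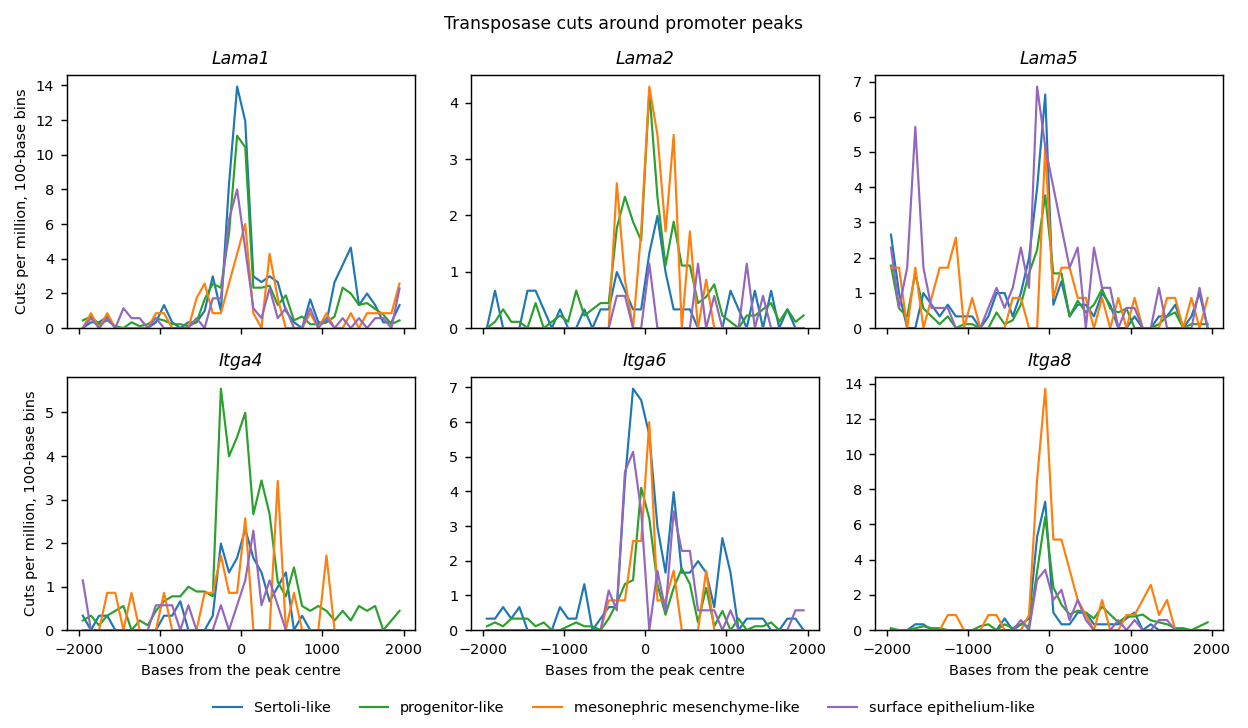
Transposase cuts per 1000000 cuts in peaks of the class, in 100-base bins within 2000 bases of the centre of the promoter peak with most cuts, for 6 chains in 4 classes drawn from RNA alone, in the direction of the gene. *Itga8* peaks highest in mesonephric mesenchyme-like nuclei and *Itga4* in progenitor-like nuclei, while the *Lama1* peak is present in every class drawn.

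The 200 bases before the RefSeq start are shown for *Itga8* and *Itga4*, whose ratio to the next class had an interval above 1, and for *Lama2* and *Lama5*, the alpha chains that were highest over the other class in progenitor-like and surface epithelium-like nuclei when these were compared (GRCm38, 5′ to 3′ on the strand of the gene). Capitals mark matches on either strand to 8 motifs searched, which were AGATAA (the motif of GATA factors), ACAAT (SOX), CAAGGTCA (NR5A), AGGTCA (NR2F, and part of the NR5A motif), GGAATG (TEAD), CCAAT (the box of that name), GGGCGG (SP) and TATAAA (the TATA box).
Itga8, chr2:12301945-12302144, minus strand: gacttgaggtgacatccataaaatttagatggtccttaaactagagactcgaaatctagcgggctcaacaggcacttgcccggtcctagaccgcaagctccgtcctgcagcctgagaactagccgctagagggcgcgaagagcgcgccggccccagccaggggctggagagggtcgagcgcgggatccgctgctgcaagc
Itga4, chr2:79255226-79255425, plus strand: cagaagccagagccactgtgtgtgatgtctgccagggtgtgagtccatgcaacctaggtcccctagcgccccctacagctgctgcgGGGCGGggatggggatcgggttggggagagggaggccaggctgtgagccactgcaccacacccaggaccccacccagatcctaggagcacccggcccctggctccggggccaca
Lama2, chr10:27616943-27617142, minus strand: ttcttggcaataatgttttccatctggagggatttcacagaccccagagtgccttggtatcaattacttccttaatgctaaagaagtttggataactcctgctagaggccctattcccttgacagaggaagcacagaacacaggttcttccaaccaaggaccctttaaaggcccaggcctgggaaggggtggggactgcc
Lama5, chr2:180225860-180226059, minus strand: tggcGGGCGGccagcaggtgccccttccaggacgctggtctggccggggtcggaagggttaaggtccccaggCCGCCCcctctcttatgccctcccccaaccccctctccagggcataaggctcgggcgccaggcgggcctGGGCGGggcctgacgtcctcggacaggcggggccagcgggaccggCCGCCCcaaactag
Matches were few. The *Itga4* and *Lama5* windows held the SP motif, which 31.0% of all RefSeq promoter windows of this length hold, and the *Itga8* and *Lama2* windows held none of the 8. The *Itga8* window overlaps an exon of the noncoding gene *E030013I19Rik* on the other strand, and the *Lama2* start used here lies inside the longer gene model of the deposited table.

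Of the 107 peaks within 50 kb of a chain's start with 50 or more cuts in their highest class, the 5 with the largest ratio of the highest to the next class were as follows. A peak at chr2:31903924-31904970, in an intron of *Lamc3*, held 61.7 cut CPM in surface epithelium-like nuclei and 11.2 in germ-like nuclei, the next class (ratio 5.50, 3.12 to 10.2). It lay 17102 bases from the start, and *Lamc3* RNA was highest in the same class. A peak at chr15:102243003-102243861, outside *Itgb7*, was highest in germ-like nuclei (ratio 3.72, 1.28 to 14.7), a peak at chr9:118590059-118590878, outside *Itga9*, in Leydig-like nuclei (3.35, 1.94 to 5.76), and a peak at chr13:114896558-114897429, inside *Itga2*, in Leydig-like nuclei (2.19, 1.22 to 4.04). A peak at chr9:108469486-108470356, near *Lamb2* but closer to the start of *Klhdc8b*, was highest in Sertoli-like nuclei (2.96, 1.57 to 5.96). Next in order was a peak at chr17:67692454-67693362, 4352 bases from the start of *Lama1*, with 17.6 cut CPM in Sertoli-like and 8.21 in Leydig-like nuclei (2.14, 0.988 to 5.07, an interval that includes 1), which was singled out after its values were seen.

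The central 300 bases of the *Lamc3* and *Lama1* peaks are shown on the plus strand, since of the 6 peaks these were highest in the class with the most RNA of the chain, with the same motifs in capitals.
Lamc3 intron peak, chr2:31904297-31904596: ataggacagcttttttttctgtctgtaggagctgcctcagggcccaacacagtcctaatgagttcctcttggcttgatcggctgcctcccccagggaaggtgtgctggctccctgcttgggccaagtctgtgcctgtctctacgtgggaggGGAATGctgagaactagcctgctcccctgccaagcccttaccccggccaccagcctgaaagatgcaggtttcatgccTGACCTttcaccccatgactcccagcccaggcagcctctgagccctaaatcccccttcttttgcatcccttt
Lama1 upstream peak, chr17:67692758-67693057: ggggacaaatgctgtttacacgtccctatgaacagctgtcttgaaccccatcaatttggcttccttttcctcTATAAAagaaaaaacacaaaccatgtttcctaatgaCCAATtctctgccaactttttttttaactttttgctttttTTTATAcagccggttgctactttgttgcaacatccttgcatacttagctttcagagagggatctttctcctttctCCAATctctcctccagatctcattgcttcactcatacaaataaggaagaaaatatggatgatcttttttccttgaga
The *Lamc3* window held the TEAD motif and the NR2F motif, which 18.5% and 22.5% of all peaks hold in a window of this length. The *Lama1* window held CCAAT (32.5% of peaks) and TATA (12.9%).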

How the data were processed

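The authors aligned the reads with Cell Ranger ARC 2.0.1 to mm10 and deposited raw counts for each barcode (UMIs of each gene, transposase cuts in each peak) with a fragment list. RNA comes from nuclei and includes introns. Nuclei were kept with at least 500 genes, under 10% mitochondrial, 10% ribosomal and 0.5% haemoglobin UMIs, 250 to 25000 fragments at peaks and at least 20% of fragments at peaks, and the top 6.13% of Scrublet scores (scanpy 1.11.5) were removed as doublets. The chains were not left out of the genes that Scrublet scored. The study's doublet caller, ambient RNA correction and blacklist filter were not used here. Depth came to 77166216 UMIs and 38270604 fragments in the kept nuclei.

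Seurat 5.3.0 (R 4.3.3) gave joint clusters from 2000 variable genes, without the 37 chains, and from the peaks (irlba 2.3.5.1), at a resolution of 0.3, and for promoters from RNA alone at 0.4. Peaks near the chains stayed in the joint clusters. Clusters were named from marker lists. A level is the sum of UMIs over a class, scaled to 1000000 UMIs of that class (CPM), with exact Poisson intervals for levels, exact conditional binomial intervals for ratios and Clopper-Pearson intervals for shares (scipy 1.17.1). Cuts come in pairs, so their intervals used cut numbers divided by 2. Free RNA was estimated per class as the median ratio of markers of unrelated classes to the library, an estimate that also takes in doublets. Ratios needed 20 UMIs over both classes, and peaks within 1 kb of a start counted as promoter. The ratio calculation was tested on simulated data.

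With 1 library per assay, nuclei are not replicates and no test was run. Of the chains the rule found, 1 is not reported here and entered no count. The chains and lists were chosen with earlier results of these data known. Chains with 100 or more UMIs and a call are given in every class, others by UMI total, and of each list the 3 genes with the largest fold among those with 100 or more UMIs over both classes. The free RNA markers, the choice of starts, the cut intervals, the motifs and the printed sequences were chosen after the data were seen. Coordinates are GRCm38 (GENCODE vM21 and RefSeq), and 23 of the 36 chains had a promoter in the RefSeq table, without *Lama1* and *Itga6*. Alternatives covered clustering, doublets, free RNA, minimums, scaling (edgeR 4.0.16 TMM) and pseudocount.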

Additional observations from a re-analysis of the deposited data

Results flagged for a closer look

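The unnamed cluster of 83 nuclei led by *Pax8* entered no comparison and held 1 laminin chain at a level no lower than those of the named classes. In this library the study classified a *Pax8*-positive cluster as supporting-like cells, and whether the nuclei are the same was not checked. *Lama5* stood at 30.6 CPM there (20.8 to 43.4), which overlapped the 30.5 CPM of surface epithelium-like nuclei. In all 7 chains were called in the cluster, namely *Lamc1*, *Lama5*, *Itga3*, *Itga6*, *Itgav*, *Itgb1* and *Itgb8*, and *Lama5* alone was highest there. The share of all genes called in this cluster was not computed, so the count cannot be read as many or few. Without the nuclei over the automatic doublet threshold the level of *Lama5* was 42.4 CPM.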

How the results depend on the processing

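No paired analysis was possible because there was 1 library per assay, and for the same reason no replicate could be left out. Of 154 counts recomputed under the alternatives, 130 stayed within 1.5 times the reported count. A resolution of 0.3 was among the alternatives although the joint classes already had it, so its values for those classes could not move. Without a minimum of UMIs the single-gene ratios below could not move either. Such values are in the totals and say nothing about stability. Contractile-like over progenitor-like (6 chains past 2-fold) gave 10 at a resolution of 1.2, 2 with classes from RNA alone, 2 with Scrublet at its automatic threshold and 10 with ambient RNA subtracted. Endothelial-like over pericyte-like (7) gave 11 with classes from RNA alone, 11 with the automatic threshold, 14 with ambient RNA subtracted, 12 with the mean over nuclei and 11 in the reported classes without nuclei over the threshold, a setting added after seeing the data. Sertoli-like over germ-like (11) gave 25 with ambient RNA subtracted, 18 with classes from chromatin alone, 17 with the automatic threshold, with the mean over nuclei and in the reported classes without nuclei over the threshold, and 7 with a pseudocount of 5 CPM. Progenitor-like over Leydig-like (9) gave 14 with ambient RNA subtracted. Classes from chromatin alone gave 19 trimer pairs in place of 40, 30 dimer pairs in place of 63 and 1 adhesion machinery gene in place of 5, which were 2 with RNA alone, 3 with the automatic threshold and 2 with the pseudocount. Basement membrane partners (8) were 18 with ambient RNA subtracted, and other ligands and receptors (10) were 6 with the pseudocount. The share of all genes was not recomputed under any alternative, so none of these counts has one beside it. Classes from chromatin alone turned *Itga2* in surface epithelium-like over progenitor-like nuclei to a ratio of 0.927. This was 1 of 650 values of 48 single-gene ratios, of which 37 fell short of 2-fold, and 33 of the 48 ratios stayed past 2-fold on the same side in every alternative that gave a value. The cause was not tested for any of these. Classes from chromatin alone and stricter minimums gave no value for endothelial-like over pericyte-like nuclei. Among the named classes with calls, those of 96, 69 and 66 nuclei held the fewest UMIs. Free RNA, which sets the call, was put highest in the endothelial-like (56.0%) and immune-like (61.4%) ones.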
